A study of Mus musculus with 5 samples.

Results

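miR-21, miR-199a-5p, miR-199a-3p and miR-214 are microRNAs (miRNAs) known from fibroblasts and from fibrosis, the laying down of collagen-rich scar. They were taken by name from the panel: an assay belonged when its name, without the species prefix and the assay number, was one of these 4, and 4 of the 217 miRNA assays did. The panel was measured in tibialis anterior, a muscle of the lower leg, of male C57BL/6J mice aged 4 to 6 months. The injured groups were muscles 1, 3, 4, 7 and 21 days after 100 µl of 2.5 µM cardiotoxin, a snake venom toxin that destroys myofibres and spares the satellite cells that rebuild them, and the control group was uninjected baseline muscle. Both hind limbs were injected and no saline-injected group was used here, so that the toxin and the needle cannot be told apart.

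TaqMan RT-PCR reports a threshold cycle (Ct), the PCR cycle at which product becomes visible, so that each cycle less means a doubling of the RNA at full PCR efficiency. Each group had 4 Ct values per assay, and the same 4 baseline values stood in every comparison. The labels give 4 mice per time point, but the files do not name the mouse behind a value. The 4 values were therefore taken as 4 mice, and if some are repeats the p-values measure technical spread. In whole muscle, fewer cells of a type and less RNA per cell cannot be told apart.

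Fibroblasts between the myofibres enter the wound after injury, multiply and lay down a transient matrix that is later removed. miR-21 is made in many cell types, activated fibroblasts and macrophages among them, and acts on Spry1, an inhibitor of growth factor signalling. miR-199a and miR-214 are miRNAs of mesenchymal cells. They are cut from Dnm3os, a long RNA transcribed opposite to the dynamin gene Dnm3, and mouse Dnm3os is known to be needed for normal skeletal development. Each arm of a hairpin can become a mature miRNA, the 5p arm from its 5′ side and the 3p arm from its 3′ side, and the 2 arms act on different mRNAs because their seeds differ.

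The mature sequences show which RNAs the assays can and cannot tell apart, with the seed, bases 2 to 8, in capitals. They are RefSeq sequences on GRCm38.p6, and all 4 assay names were matched. The files name no arm for miR-21 and miR-214, and the common arm, 5p and 3p in RefSeq, was taken.
miR-21: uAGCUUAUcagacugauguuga
miR-199a-5p: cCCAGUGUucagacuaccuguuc
miR-199a-3p: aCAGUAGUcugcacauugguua
miR-214: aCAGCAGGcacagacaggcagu

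No 2 of the 4 shared a seed. The seeds of miR-199a-3p and miR-214 were the closest pair, with 5 of 7 bases the same and the differences U5C and U8G, given as the miR-199a-3p base, the position from the 5′ end and the miR-214 base. miR-199a-3p is identical over its whole length to miR-199b-3p, which comes from Mir199b (chr2:32318460-32318569, plus strand) within Dnm1, so that its assay reads both. Among the 1679 mature names searched, others with a seed of these 4 were miR-21c for miR-21 and miR-761 for miR-214. None was found for miR-199a-5p among those names. This does not show that its seed is unique or that its assay reads no close relative, since a miRNA missing from those names could not be found.

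Mir199a-2 (chr1:162217814-162217923, plus strand) and Mir214 (chr1:162223368-162223477, plus strand) are 5444 bases apart within Dnm3os, which itself lies inside Dnm3. A second copy, Mir199a-1 (chr9:21496495-21496564, minus strand), lies within Dnm2 and gives the same 2 mature miRNAs. Mir21a (chr11:86584067-86584158, minus strand) lies within the Vmp1 gene. The 2 hairpins of Dnm3os are shown with the measured arms in capitals, since 3 of the 4 assays read them.
Mir199a-2: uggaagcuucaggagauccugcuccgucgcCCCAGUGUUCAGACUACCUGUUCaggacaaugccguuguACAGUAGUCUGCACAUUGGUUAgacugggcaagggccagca
Mir214: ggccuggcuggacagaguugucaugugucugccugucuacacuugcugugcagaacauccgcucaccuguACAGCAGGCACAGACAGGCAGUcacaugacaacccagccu

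The start of Dnm3os (chr1:162217373-162217672, plus strand, 250 bases before the start and 50 after) is shown because 3 of the 4 miRNAs can come from this RNA. Capitals mark E-boxes, CANNTG, the element of twist and MyoD proteins, and a CArG box, the element of serum response factor. Both motifs read the same on either strand, and their matches do not overlap.
Dnm3os: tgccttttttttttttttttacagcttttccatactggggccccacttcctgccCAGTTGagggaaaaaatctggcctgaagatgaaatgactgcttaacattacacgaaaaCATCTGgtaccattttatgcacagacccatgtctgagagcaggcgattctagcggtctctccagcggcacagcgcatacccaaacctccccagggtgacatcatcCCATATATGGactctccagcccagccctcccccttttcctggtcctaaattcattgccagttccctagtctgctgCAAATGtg

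It held 3 E-boxes, at -196, -138 and 42 from the start, and 17.6% of 32851 promoter windows of this length held as many. It held 1 CArG box, at -33, and 1.63% of the windows held one. Both motifs were chosen after the tests had been set. A match is a string of letters and was not tested as a site.

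The muscle identity of the samples and the scaling were checked before the 4 miRNAs were compared. miR-1 and miR-133a, the miRNAs that define striated muscle, had mean Ct values of 12.9 and 9.35 at baseline. U6, the small nuclear RNA that the files mark as endogenous control, itself moved: its mean Ct was lowest at day 1, at 12.5, against 14.8 at baseline, and by day 21 it was 14.6. Changes are therefore given relative to the median miRNA (the median change of 205 miRNAs with a Ct under 35 in every value) and, beside it, relative to U6. Scaling by U6 places every log2 change lower, by 1.91 (day 1), 1.12 (day 3), 0.67 (day 4), 0.09 (day 7) and 0.12 (day 21). The words rose and fell are kept for changes where limma's test, adjusted by Benjamini-Hochberg over all miRNAs tested, gave an adjusted p under 0.05 in the same direction under both scalings.

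All 4 miRNAs were detected in every group, with all 96 of their Ct values under 35. miR-21 rose at days 3, 4 and 7 and stood highest at day 3. miR-199a-3p and miR-214 fell at day 1, a direction that turned when Y1, another control RNA, was the scaling. miR-214 and miR-199a-5p stood above baseline by day 7, but both calls were lost when certain single values were left out. Relative to snoRNA135, also a control RNA, 0 of the 4 passed as higher at day 7. Between days 1 and 3 all 4 rose, though miR-199a-5p alone passed when scaled by Y1. By day 21 the changes from baseline were small or differed with the scaling.

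**Figure D1:**
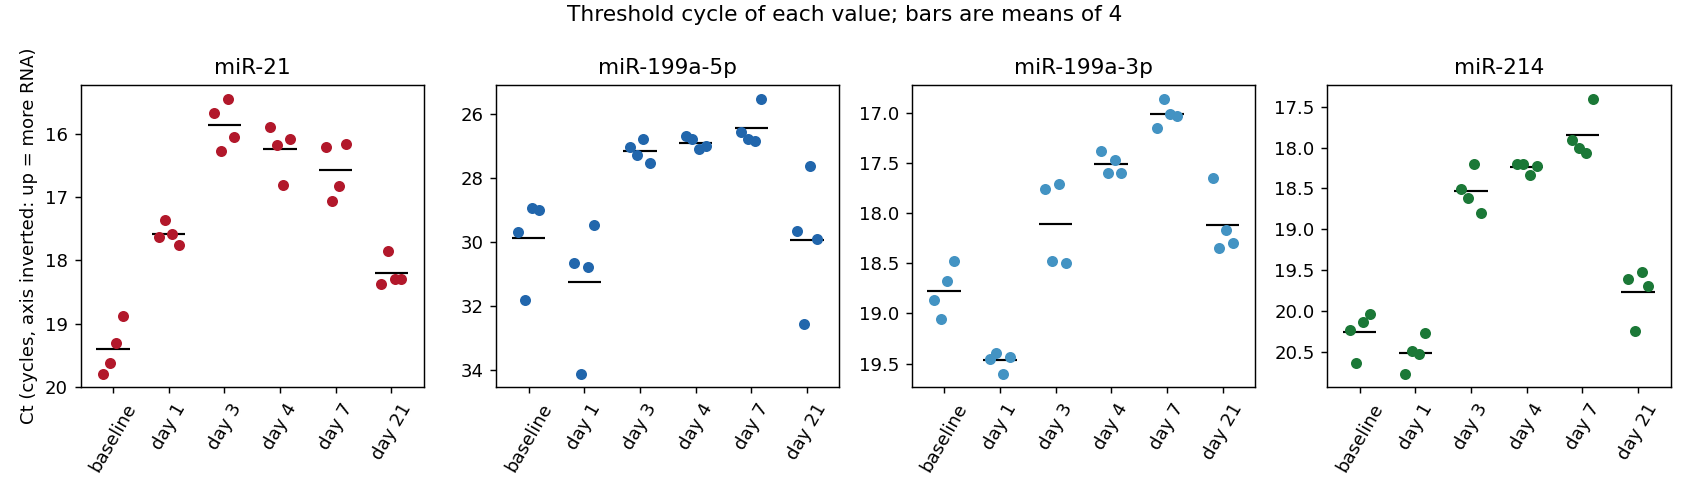
Ct of every value of the 4 miRNAs, with the axis inverted so that up means more RNA; columns are baseline and days 1, 3, 4, 7 and 21, points the 4 values and bars their means. miR-21 has its lowest mean Ct at day 3, 15.9, and miR-199a-5p is widely spread at baseline, day 1 and day 21.

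miR-21 had Ct values of 19.79, 19.62, 19.31 and 18.88 at baseline. They were 17.63, 17.36, 17.59 and 17.76 at day 1, and 15.67, 16.28, 15.45 and 16.05 at day 3. The 3 groups did not overlap, each later one lying below the one before it. At day 4 the values were 15.90, 16.18, 16.82 and 16.08, at day 7 they were 16.22, 17.07, 16.83 and 16.17, and at day 21 they were 18.38, 17.85, 18.30 and 18.30. Days 4 and 7 overlapped each other, and day 21 lay between them and baseline without touching either.

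Relative to the median miRNA, miR-21 was 1.43 ± 0.18 above baseline on the log2 scale at day 1 (SE, 4 values per group; 2.70-fold, adjusted p = 3.71e-07), but -0.48 ± 0.45 relative to U6 (adjusted p = 0.342), so its direction at day 1 depended on the scaling. It rose 7.11-fold at day 3 (2.83 ± 0.18, adjusted p = 5.00e-12; 1.71 ± 0.45 relative to U6, adjusted p = 0.00122). This was the 27th largest increase among 212 miRNAs tested. It remained up at day 4, at 2.21 ± 0.18 (1.54 ± 0.45 relative to U6, adjusted p = 0.00331), and at day 7, at 1.64 ± 0.18 (1.54 ± 0.45 relative to U6, adjusted p = 0.00348; 0.46 relative to the control snoRNA135, adjusted p = 0.0569). At day 21 it was 2.06-fold over baseline relative to the median miRNA (1.04 ± 0.18, adjusted p = 3.50e-05), and 0.92 ± 0.45 relative to U6 missed the threshold (adjusted p = 0.101).

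The levels of miR-21 relative to the median miRNA ran, from high to low, day 3, day 4, day 7, day 1, day 21 and baseline. Day 3 lay apart from day 4 and day 21 apart from baseline, with no overlap of values. The ranges of days 4 and 7, of days 7 and 1 and of days 1 and 21 overlapped, and the gap between days 7 and 1, 0.20, was smaller than the SD at day 7, 0.35.

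miR-214, cut from the second hairpin of Dnm3os, had Ct values of 20.23, 20.64, 20.14 and 20.04 at baseline and of 20.77, 20.49, 20.53 and 20.27 at day 1. The values were 18.51, 18.62, 18.20 and 18.80 at day 3, and 18.20, 18.20, 18.34 and 18.22 at day 4. In raw Ct day 1 overlapped baseline, and days 3 and 4 lay more than a cycle below both. At day 7 the values were 17.91, 18.01, 18.06 and 17.40, and at day 21 they were 19.61, 20.25, 19.52 and 19.70. Day 7 had the lowest mean Ct, and day 21 overlapped baseline.

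miR-214 fell at day 1, by 0.64 ± 0.16 in log2 units when scaled by the median miRNA (SE, 4 values per group; 1.55-fold lower than baseline, adjusted p = 0.000822), and stood at -2.55 ± 0.43 relative to U6 (adjusted p = 3.48e-06), but at 2.10 relative to Y1, a small cytoplasmic RNA whose mean Ct was 22.7 at day 1, against 20.3 at baseline. At day 3 it was 2.03-fold over baseline relative to the median miRNA (1.02 ± 0.16), with -0.10 ± 0.43 for the U6 scaling, and at day 4 these were 1.08 ± 0.16 and 0.41 ± 0.43. Neither day passed relative to U6, with adjusted p = 0.832 and adjusted p = 0.391. It rose at day 7, by 2.34-fold (1.23 ± 0.16, adjusted p = 2.37e-07; 1.13 ± 0.43 relative to U6, adjusted p = 0.0194), and was at 0.05 relative to the control snoRNA135 (adjusted p = 0.838). The U6-scaled call at day 7 was lost without day 7 value 2 or 3, at 0.99 (adjusted p = 0.0603) and 0.91 (adjusted p = 0.0696). At day 21 the change was 0.34 (95% interval 0.02 to 0.67, adjusted p = 0.0527), and 0.22 ± 0.43 relative to U6 (adjusted p = 0.716). Relative to the median miRNA it passed without baseline value 1 (0.42, adjusted p = 0.0236) or day 21 value 2 (0.485, adjusted p = 0.00776).

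Days 7, 4 and 3 could not be ordered for miR-214, since their levels relative to the median miRNA overlapped and their means, 1.23, 1.08 and 1.02, lay within the SD of day 7, 0.27. Day 3 lay apart from day 21. Day 21 overlapped baseline, and baseline lay apart from day 1.

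miR-199a-3p, the 3p arm of the other Dnm3os hairpin and also the read-out of miR-199b-3p, had Ct values of 18.87, 19.06, 18.68 and 18.48 at baseline and of 19.45, 19.39, 19.60 and 19.43 at day 1. Every day 1 value was above every baseline value. At day 3 the values were 17.76, 18.48, 17.71 and 18.50, at day 4 they were 17.38, 17.60, 17.47 and 17.60, and at day 7 they were 17.15, 16.86, 17.01 and 17.03. Day 7 lay below all other groups, without overlap. At day 21 the values were 17.65, 18.35, 18.17 and 18.30, below baseline and above day 7.

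miR-199a-3p fell at day 1, by 1.08 ± 0.16 relative to the median miRNA (SE, 4 values per group; 2.11-fold lower, adjusted p = 3.04e-06), and stood at -2.99 ± 0.50 relative to U6 (adjusted p = 3.52e-06), but at 1.66 relative to Y1. At day 3 it was at -0.05 ± 0.16 relative to the median miRNA (95% interval -0.38 to 0.29, adjusted p = 0.804), while U6 scaling gave -1.17 ± 0.50 (adjusted p = 0.0380). That U6-scaled call was lost without value 2, 3 or 4 of either group, with changes from -1.15 to -1.02 and adjusted p = 0.0642 to adjusted p = 0.0991. At day 4 it was at 0.32 ± 0.16 (adjusted p = 0.0740). It stood 1.48-fold over baseline at day 7 (0.57 ± 0.16, adjusted p = 0.00280) and 1.42-fold at day 21 (0.51 ± 0.16, adjusted p = 0.00832) relative to the median miRNA. With U6 as the scaling these were 0.48 ± 0.50 and 0.39 ± 0.50 and missed the threshold (adjusted p = 0.417 and adjusted p = 0.566).

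In order of level relative to the median miRNA, miR-199a-3p ran day 7, day 21, day 4, baseline, day 3 and day 1. Days 7, 21 and 4 overlapped in turn, and so did baseline and day 3, where the gap of 0.05 was smaller than the SD of day 3, 0.27. The lowest day 4 level and the highest baseline level met at 0.12, and day 3 lay apart from day 1.

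miR-199a-5p, the other arm of the same hairpin, varied most, and its mean Ct was 29.9 at baseline, 31.2 at day 1 and 29.9 at day 21 but 27.2, 26.9 and 26.4 at days 3, 4 and 7. Its Ct values were 29.69, 31.81, 28.94 and 28.98 at baseline and 30.63, 34.10, 30.77 and 29.46 at day 1, with value 2, as listed, the highest of both groups. At day 3 they were 27.03, 27.28, 26.78 and 27.52, at day 4 they were 26.67, 26.76, 27.09 and 27.0, and at day 7 they were 26.56, 26.78, 26.83 and 25.51. The 3 groups overlapped each other and lay below every baseline and day 1 value. At day 21 the values were 29.66, 32.55, 27.62 and 29.89, reaching above and below the whole baseline range.

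The residual SD of miR-199a-5p relative to the median miRNA, 1.28 on the log2 scale, was exceeded by 2 of the 217 assays, against 0.26 for miR-21, 0.22 for miR-199a-3p and 0.21 for miR-214. Its SD within a group was 1.197 at baseline, 2.00 at day 1 and 2.00 at day 21, but 0.16 at day 3, 0.18 at day 4 and 0.58 at day 7. limma fits a single spread per miRNA over all groups, so its SE for miR-199a-5p, 0.84, is the same on every day.

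Scaled by the median miRNA, miR-199a-5p was at -1.77 ± 0.84 at day 1 (SE, 4 values per group; adjusted p = 0.0601), and relative to U6 at -3.68 ± 0.73 (adjusted p = 3.62e-05). It was 3.99-fold over baseline at day 3 (2.00 ± 0.84, adjusted p = 0.0356) and 4.09-fold at day 4 (2.03 ± 0.84, adjusted p = 0.0308), but its changes relative to U6, 0.87 ± 0.73 and 1.36 ± 0.73, did not pass (adjusted p = 0.269 and adjusted p = 0.0936). It rose at day 7, by 4.73-fold (2.24 ± 0.84, adjusted p = 0.0190; 2.15 ± 0.73 relative to U6, adjusted p = 0.0102), and was at 1.07 relative to snoRNA135 (adjusted p = 0.235). That call was lost without baseline value 2 (1.66, adjusted p = 0.0830) or day 7 value 4 (1.96, adjusted p = 0.0568). At day 21 it was at -0.22, with an interval from -1.98 to 1.53 (adjusted p = 0.845).

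The calls at days 3 and 4 relative to the median miRNA were likewise lost without baseline value 2, at 1.43 (adjusted p = 0.135) and 1.42 (adjusted p = 0.135). Leaving out day 3 value 1, 2 or 3 gave 1.96, 1.97 and 1.98 with adjusted p = 0.0621, adjusted p = 0.0608 and adjusted p = 0.0609. Leaving out day 4 value 1 or 2 gave 1.99 and 1.99 with adjusted p = 0.0546 and adjusted p = 0.0561. The day 1 change passed without baseline value 2 (-2.37, adjusted p = 0.0169) or day 1 value 4 (-2.39, adjusted p = 0.0159). In order of level, days 7, 4 and 3 overlapped each other and lay apart from baseline, while baseline, day 21 and day 1 overlapped in turn.

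**Figure D2:**
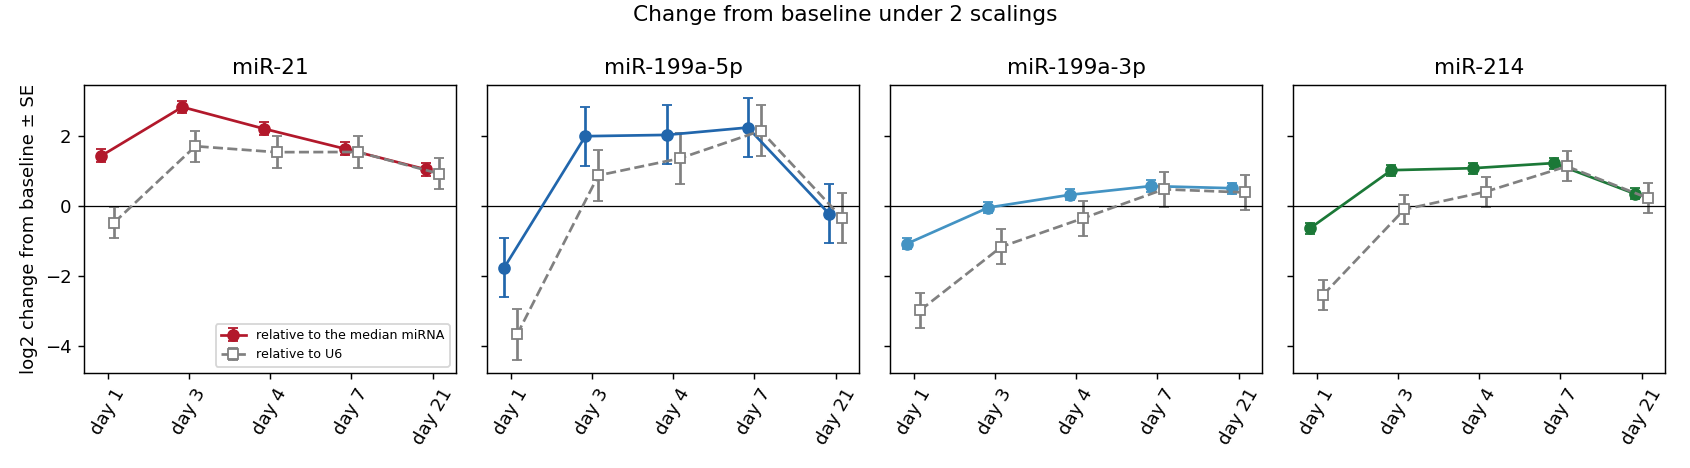
Log2 change from baseline of the 4 miRNAs at days 1, 3, 4, 7 and 21, with SE from limma; filled circles are relative to the median miRNA and open squares relative to U6. The scalings are 1.91 apart at day 1 and 0.09 apart at day 7, and miR-21 changes side of 0 between them at day 1.

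Counted over the 4 miRNAs, 2 fell at day 1, miR-199a-3p and miR-214, where 38.9% of all miRNAs tested fell. At day 3, 1 rose, miR-21, against 19.3% of all, and at day 4, 1 rose, again miR-21, against 25.4%. At day 7, 3 rose, miR-21, miR-199a-5p and miR-214, against 31.5% of all. At day 21 the count in limma was 0 of 4, against 22.1% of all higher and 19.2% lower. With an unadjusted p under 0.05 under both scalings 1 was higher at day 21, and limma-trend, which lets the spread depend on the level, called 0. Either scaling alone gave other counts, with their own background. By the median miRNA, 3 of the 4 were higher at day 3 (38.7% of all), 3 at day 4 (43.2%), 4 at day 7 (40.4%) and 2 at day 21 (35.7%), and 1 was higher at day 1 (41.2%) and 2 lower (38.9%). None was lower at days 3, 4, 7 and 21, where 41%, 41.3%, 42.3% and 37.6% of all were. Relative to U6 alone 3 were lower at day 1 (65.9% of all) and 1 at day 3 (52.8%), and none at days 4 and 7 (43.2% and 36.2%). The medians of the 4 relative to the median miRNA were -0.86, 1.51, 1.56, 1.43 and 0.43 at days 1, 3, 4, 7 and 21, beside -0.04, -0.05, 0.06, 0.07 and 0.00 over all miRNAs tested. The medians over all lie near 0 by construction, here and for the lists below, since the scaling subtracts the median miRNA. Relative to U6 the medians of the 4 were -2.77, 0.39, 0.88, 1.34 and 0.30. Those over all miRNAs tested were -1.95, -1.17, -0.61, -0.03 and -0.12.

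**Figure D3:**
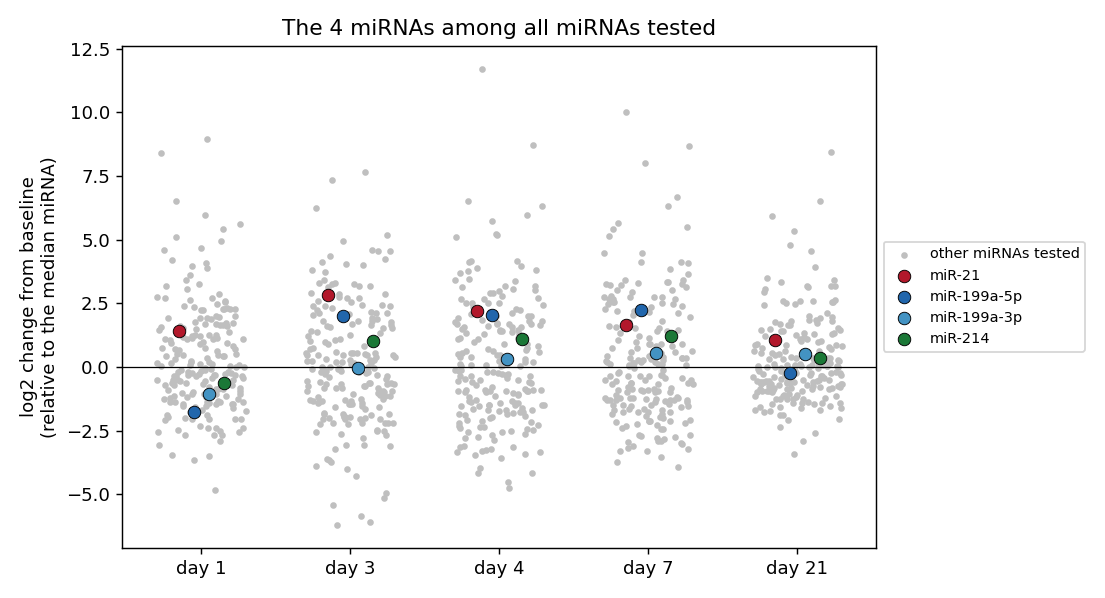
Log2 change from baseline relative to the median miRNA at days 1, 3, 4, 7 and 21; large coloured points are the 4 miRNAs and small grey points all other miRNAs tested, spread sideways at random. The 4 lie well inside the range of the panel, with miR-21 at 2.83 at day 3 as their highest point.

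Between successive time points the largest step of this group came from day 1 to day 3. All 4 rose, where 31% of all miRNAs tested did. miR-199a-5p was 13.6-fold higher at day 3 than at day 1 (3.76 ± 0.84, adjusted p = 0.000402; 4.55 ± 0.73 relative to U6), the 5th largest increase of 213. miR-214 was 3.16-fold higher (1.66 ± 0.16), miR-21 2.64-fold higher (1.40 ± 0.18) and miR-199a-3p 2.04-fold higher (1.03 ± 0.16), and relative to U6 these were 2.45, 2.19 and 1.82. Relative to the median miRNA alone 31.5% of all were higher and 48.4% lower over this step, and relative to U6 alone 32.9% were higher, while 13.1% fell under both. Relative to Y1, miR-199a-5p alone passed, and miR-214, miR-21 and miR-199a-3p were at 0.25 (adjusted p = 0.413), -0.02 (adjusted p = 0.966) and -0.38 (adjusted p = 0.246).

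From day 3 to day 4 the count in limma was 0 of 4, against 21.3% of all miRNAs higher and 1.85% lower, and from day 4 to day 7 it was 0, against 16.1% higher and 0.922% lower. At an unadjusted p under 0.05 and with limma-trend both counts were also 0. Relative to the median miRNA alone, 25.9% of all were higher and 28.2% lower in the earlier step, and 24% and 25.8% in the later one, and relative to U6 alone 17.5% were higher in the later one. Relative to the median miRNA alone miR-21 changed by -0.62 ± 0.18 from day 3 to day 4 (adjusted p = 0.00736) and from day 4 to day 7 by -0.58 ± 0.18 (adjusted p = 0.0126; -0.44 with adjusted p = 0.0607 without day 7 value 2), but relative to U6 these were -0.17 and 0.01. From day 7 to day 21, 1 of the 4 fell, miR-199a-5p, against 14.4% of all (19.4% rose; by the median miRNA alone 38.4% were up and 32.4% down, and by U6 alone 19.9% were up). It was at -2.47 ± 0.84 (adjusted p = 0.0130; -2.50 ± 0.73 relative to U6), and without day 21 value 2 at -1.61 (adjusted p = 0.0757). miR-214 and miR-21 were at -0.88 ± 0.16 and -0.59 ± 0.18 over that step, and at -0.91 ± 0.43 and -0.62 ± 0.45 relative to U6, which missed the threshold (adjusted p = 0.0951 and adjusted p = 0.291).

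The ratio of 2 of these miRNAs within a value needs no control RNA. It was tested by using one of them as the scaling in the same fit over all miRNAs, for 6 pairs and 5 days, 30 tests in all, each adjusted over the whole panel. It assumes that the values listed in the same place for 2 assays came from the same RNA. The scalings by the median miRNA and by U6, made value by value, assume the same. Ratios are given as log2 changes from baseline, and only changes are compared, since a Ct cannot be set against that of another assay.

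At day 1 miR-21 gained on each of the other 3. The miR-214 Ct minus the miR-21 Ct was 3.14, 3.13, 2.94 and 2.51 at day 1, against 0.44, 1.02, 0.83 and 1.16 at baseline. The groups did not overlap, and the ratio of miR-21 to miR-214 was 4.19-fold higher at day 1 than at baseline (2.07 ± 0.25, adjusted p = 1.29e-07; 71.9% of all miRNAs differed from miR-214 in either direction). It was 1.81 ± 0.25 at day 3, 1.13 ± 0.25 at day 4 and 0.70 ± 0.25 at day 21 (adjusted p = 6.38e-07, adjusted p = 0.000276 and adjusted p = 0.0172), and 0.41 at day 7 with an interval from -0.11 to 0.93 (adjusted p = 0.131). The day 21 difference was lost without day 21 value 2 (0.42, adjusted p = 0.100) or baseline value 1 (0.56, adjusted p = 0.0662). On days 3, 4, 7 and 21, 84.4%, 84.4%, 88.2% and 68.4% of all miRNAs differed from miR-214.

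miR-21 also gained on miR-199a-3p, by 2.51 on day 1, 2.88 on day 3, 1.90 on day 4 and 1.07 on day 7, each with an SE of 0.26 (largest adjusted p = 0.000698, at day 7). At day 21 the difference was 0.54, with an interval from -0.004 to 1.08 (adjusted p = 0.0675). Between 74.1% and 82.1% of all miRNAs differed from miR-199a-3p on these days. Against miR-199a-5p, miR-21 gained 3.20 ± 0.93 at day 1 (adjusted p = 0.00225; 43.3% of all), and differences at later days lay between -0.61 and 1.27 and missed the threshold, where 53.6%, 54.2%, 60.4% and 12.7% of all miRNAs differed from miR-199a-5p at days 3, 4, 7 and 21.

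miR-199a-3p lagged behind miR-214 from day 3 to day 7, though its assay also reads RNA from the Dnm2 and Dnm1 copies. The miR-214 Ct minus the miR-199a-3p Ct was 0.75, 0.14, 0.49 and 0.30 at day 3, against 1.36, 1.58, 1.46 and 1.56 at baseline, again without overlap. The ratio of miR-199a-3p to miR-214 changed by -1.07 ± 0.19 at day 3, -0.76 ± 0.19 at day 4 and -0.66 ± 0.19 at day 7 (adjusted p = 2.51e-05, adjusted p = 0.00101 and adjusted p = 0.00333), and dropping any 1 value left these 3 differences past the threshold. At day 1 it was -0.44 ± 0.19 (adjusted p = 0.0456), which missed the threshold once any of 6 of the 8 values was dropped (values 2, 3 and 4 of either group). Without those baseline values it was -0.41 (adjusted p = 0.0914), -0.45 (adjusted p = 0.0696) and -0.42 (adjusted p = 0.0896), and without those day 1 values -0.46 (adjusted p = 0.0638), -0.40 (adjusted p = 0.0937) and -0.37 (adjusted p = 0.112). At day 21 it was 0.16, with an interval from -0.24 to 0.56.

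miR-199a-5p and miR-214 could not be told apart by change on any day. Their differences were -1.13, 0.97, 0.95, 1.02 and -0.57 in the order of the days, with intervals from -2.67 to 0.41, -0.57 to 2.51, -0.59 to 2.49, -0.52 to 2.56 and -2.11 to 0.97. The 2 arms of the miR-199a hairpin, 3p over 5p, differed by 0.69, -2.04, -1.72, -1.68 and 0.73, each with an SE of 0.93, in the same order. None passed, against 43.3%, 53.6%, 54.2%, 60.4% and 12.7% of all miRNAs relative to miR-199a-5p, the nearest being day 3 (adjusted p = 0.0515), which passed without baseline value 3 (-2.32, adjusted p = 0.0417). The log2 ratio of miR-199a-5p to miR-214 had SDs of 0.09 at day 3 and 0.15 at day 4, against 1.09 at baseline, 1.97 at day 1 and 1.72 at day 21.

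**Figure D4:**
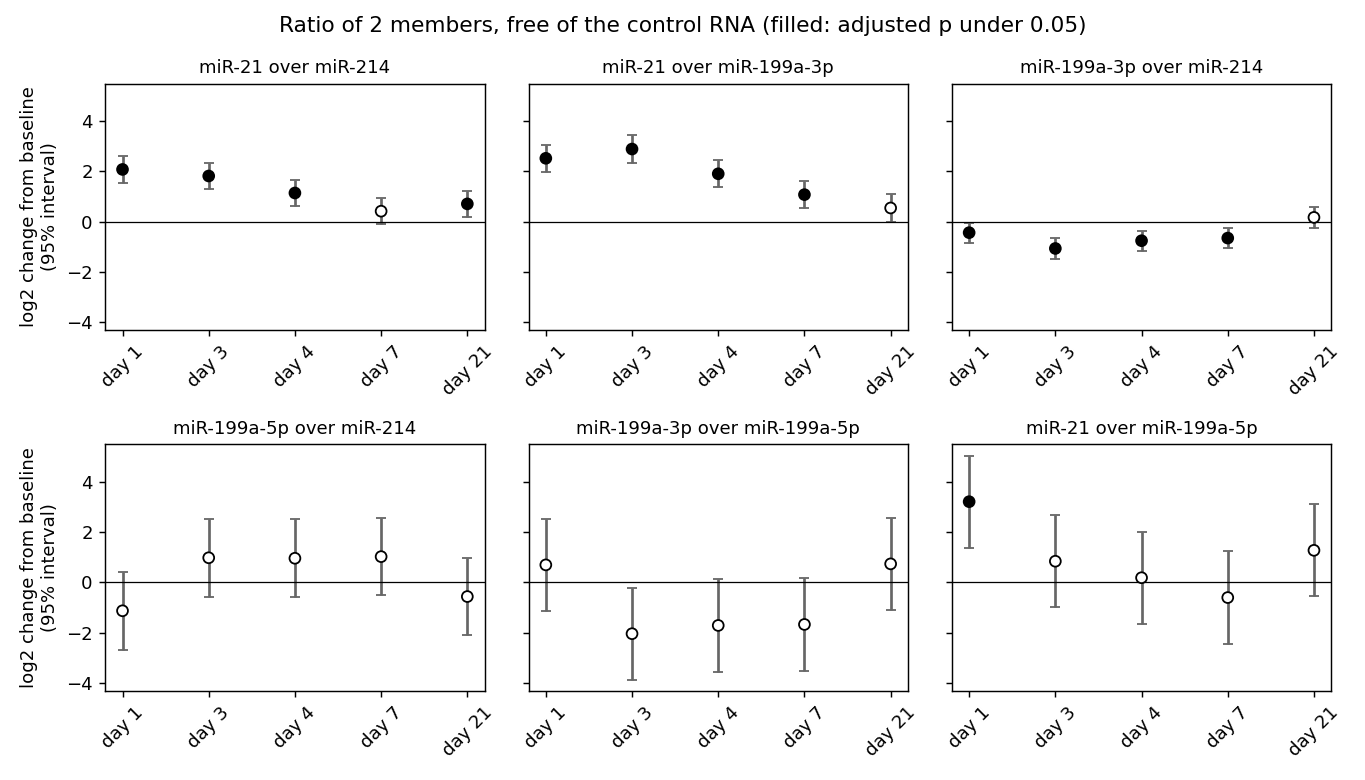
Log2 change from baseline of the ratio of 2 of the 4 miRNAs at days 1, 3, 4, 7 and 21, with 95% intervals from limma; filled points had an adjusted p under 0.05. miR-21 over miR-214 starts at 2.07 at day 1 and is 0.41 at day 7, and miR-199a-3p over miR-214 is lowest at day 3, at -1.07.

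Across the 6 group means relative to the median miRNA, miR-199a-5p and miR-214 had the most similar courses of the 4 (Pearson r = 0.98), and 0 of the 201 other miRNAs with a Ct under 35 in every value was nearer to miR-199a-5p, while 1, miR-370, was nearer to miR-214. miR-199a-3p correlated with miR-214 at 0.77 and with miR-199a-5p at 0.70. miR-21 correlated at 0.59 with miR-214, 0.57 with miR-199a-5p and 0.03 with miR-199a-3p. These r values describe 6 means that share the baseline and the scaling, and baseline is 0 for every miRNA by construction.

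The miRNAs with the most similar course to miR-21 were miR-669a (r = 0.95), miR-182 (0.94) and miR-449a (0.93). For miR-214 and miR-199a-5p the nearest were miR-370 (0.98 and 0.95) and miR-376b (0.97 and 0.95), followed by miR-409-3p for miR-214 (0.96) and miR-134 for miR-199a-5p (0.93). For miR-199a-3p they were miR-455 (0.98), miR-369-3p (0.96) and miR-329 (0.95). The size of change was not part of this measure: at day 7 miR-370 was at 5.50 and miR-214 at 1.23.

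Other miRNAs of fibrosis were followed as 2 lists. All 24 of 24 listed miRNAs held to restrain matrix genes or TGF-beta signalling were measured, and more fell than rose on each day. Under both scalings 13 fell and 4 rose at day 1, 16 and 5 on day 3, 16 and 4 on day 4, 17 and 3 on day 7, and 11 and 1 on day 21. Over all miRNAs 38.9%, 41%, 41.3%, 35.7% and 19.2% fell and 9%, 19.3%, 25.4%, 31.5% and 22.1% rose on these days. The median of the list at day 7 was -1.81 relative to the median miRNA, beside 0.07 over all miRNAs tested. miR-133a and miR-133b, myofibre miRNAs that act on collagen and connective tissue growth factor mRNAs, fell most, to -5.87 ± 0.43 and -4.94 ± 0.29 at day 3. miR-200a and miR-141, epithelial miRNAs that act on the Zeb repressors, were the largest rises, at 8.38 ± 0.47 and 5.40 ± 0.44 at day 1. Their baseline mean Ct values were 34.5 and 32.8, that of miR-200a close to the limit of 35, so the size of its rise is uncertain. Relative to U6, miR-133a, miR-133b, miR-200a and miR-141 were at -6.99, -6.06, 6.475 and 3.495 on these days.

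Of 12 listed miRNAs reported as raised in fibrosis or in myofibroblasts, 10 were measured, and more fell than rose on days 1 to 7. Under both scalings 3 fell and 1 rose at day 1, 5 and 2 at day 3, 7 and 1 at day 4, 5 and 1 at day 7, and 1 and 1 at day 21. Over all miRNAs more also fell than rose on days 1 to 7. The shares that fell were 38.9%, 41%, 41.3%, 35.7% and 19.2% in the order of the days. Those that rose were 9%, 19.3%, 25.4%, 31.5% and 22.1%. The rise at each day included miR-34c, a p53 target, at 5.17 ± 0.26 at day 3. miR-145 and miR-143, which are made together in smooth muscle and myofibroblasts, fell, to -3.30 ± 0.16 and -2.42 ± 0.17 at day 4. miR-146a, which restrains toll-like receptor signalling, was at 2.26 ± 0.19 at day 1 by the median miRNA, with 0.35 ± 0.44 by U6 (adjusted p = 0.476). The median of this list at day 7 was -0.86, beside 0.07 over all miRNAs tested.

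Markers of other cell types moved in the same days. The mean level of 8 of 8 listed blood cell miRNAs relative to the median miRNA ranged from 3.53 to 3.75 over the day 1 values, 1.94 to 2.33 (day 3), 1.15 to 1.54 (day 4), 0.53 to 0.75 (day 7) and 0.29 to 0.69 (day 21), against -0.22 to 0.40 at baseline. Its members split: of 7 tested, 3 rose and 0 fell under both scalings at day 1, 3 rose and 2 fell at day 3, 3 and 3 at day 4, 2 and 3 at day 7, and 0 and 0 at day 21. The mean of the 8 also covers miR-147, which was not detected at baseline. The median of the 7 tested was 1.58 at day 1 and -0.25 at day 21, and relative to U6 it was -0.33 and -0.37. The myeloid miR-223 had a mean Ct of 11.8 at day 1, against 18.7 at baseline, whereas the lymphocyte miR-150 had 17.4 at day 7, against 16.5 at baseline. The mean of 5 measured of 8 listed myofibre miRNAs was -4.63 to -2.67 (day 1), -6.98 to -5.58 (day 3), -3.90 to -3.03 (day 4), -2.66 to -1.87 (day 7) and -1.46 to -0.93 (day 21). All blood cell miRNAs but miR-147 were detected at baseline, and all 5 myofibre miRNAs but miR-499 at day 3. The part of either cell type in the changes of miR-21, miR-199a and miR-214 was not tested.

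Levels of 3 smaller marker lists were also recorded. The mean of 2 of 2 smooth muscle miRNAs was -1.01 to -0.62 at day 1 and -3.15 to -2.55 at day 7, and that of 3 of 3 endothelial miRNAs -1.30 to -1.02 at day 3 and 0.41 to 0.86 at day 21. The endothelial miRNAs split, with 2 lower (both miR-126 arms) and 1 higher (miR-296-5p) under both scalings at days 4 and 7. At day 21 miR-296-5p was still higher under both. The other 2 were then lower relative to the median miRNA alone, and the list median was -0.61, below baseline unlike the mean. The mean of 6 measured of 7 listed epithelial miRNAs was 4.72 to 5.29 at day 1, and -0.81 to 0.64 at day 21. Of these 6, miR-429 was not detected at day 21 or baseline, with mean Ct values of 37.4 at day 21 and 35.9 at baseline, and 1 of the 5 tested, miR-203, fell at days 1, 3, 4 and 7. At day 21, 1 of the 5 also fell under both scalings. The mean Ct of miR-200c was then 27.9, against 26.9 at baseline, and that of miR-203 21.6, against 21.9. The part of these cells was not tested either.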

How the data were processed

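The deposited files hold the authors' raw Ct values, without normalization: 222 assays (217 miRNAs and 5 control RNAs) and 888 lines in each of 5 files. Per the labels' protocols, these were single TaqMan assays run for 40 cycles on total RNA of integrity number above 9. Each file repeats the same baseline values, which entered the fit a single time. The sources used here do not give the threshold setting or the RNA input. Time points other than days 1, 3, 4, 7 and 21 were not analysed here.

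A miRNA counted as detected in a group when 3 or more of its 4 values lay under Ct 35, and was tested where both groups detected it, leaving out values at 40. limma 3.58.1 under R 4.3.3 fitted all 6 groups at once (lmFit, then eBayes, two-sided), with Benjamini-Hochberg adjustment across all miRNAs tested. The fit was also run on simulated data. There only part of the miRNAs changed, in a single group and equally in both directions, with U6 unchanged. That simulation therefore does not test the scaling for changes as wide as those seen here. The 4 miRNAs, the lists and the scaling by the median miRNA were chosen with earlier results of these data known. Also named are the 3 miRNAs nearest in course to each of the 4 and the 4 largest changes of each fibrosis list. For miR-30a-5p and miR-125b the assays named miR-30a and miR-125b-5p were read. The number of values per group limits the precision. Alternatives were other control RNAs, raw Ct, other Ct limits, limma-trend, fits of 2 groups and values left out in turn.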

Additional observations from a re-analysis of the deposited data

Results flagged for a closer look

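Of 24 groups of 4 values (4 miRNAs in 6 groups), each examined as Ct and relative to the median miRNA, 5 values stood far from the other 3 of their group by Dixon's test, which flags about 1 in 20 groups by chance. The second baseline value of miR-199a-5p stood at -1.78 relative to the median miRNA, with the others between 0.38 and 0.79. The fourth day 7 value of miR-199a-5p stood at 3.11, with the others between 1.94 and 1.97. The third day 1 value of miR-199a-3p stood at -1.47, with the others between -0.97 and -0.93. In raw Ct, the second day 21 value of miR-21 was 17.85, with the others between 18.30 and 18.38, and the third day 4 value of miR-214 was 18.34, with the others between 18.20 and 18.22. The call of miR-199a-5p at day 7 was lost without either of its own values named here, at 1.66 (adjusted p = 0.0830) and 1.96 (adjusted p = 0.0568), while the fall of miR-199a-3p at day 1 was -0.95 without its low value and still passed.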

How the results depend on the processing

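Counts here are of the 4 miRNAs past the threshold relative to the median miRNA alone, where the counts against baseline were 1 higher and 2 lower at day 1, and 3, 3, 4 and 2 higher at days 3, 4, 7 and 21. The control RNA mattered most, and the cause was not tested. For snoRNA135, snoRNA202, U87, Y1, the median Ct and raw Ct, the share of all miRNAs past the threshold was not computed. Counts under those scalings therefore have no background beside them and show only how the calls move with the scaling. Relative to U6 the higher counts were 0, 1, 1 and 0 on days 1, 3, 4 and 21. The shares of all miRNAs higher on these days were 9%, 19.3%, 25.4% and 22.1%. At day 3, 1 was lower, against 52.8% of all. The lower counts were 0 from day 3 to 4 and 0 from day 4 to 7, against 1.85% and 0.922% of all. From day 7 to 21, 1 was lower, against 14.4% of all. The signs of miR-21 at day 1 (-0.48), miR-214 at day 3 (-0.10), miR-199a-3p at day 4 (-0.36) and miR-21 from day 4 to 7 (0.005) turned.

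Relative to snoRNA135 the higher counts were 0, 1, 1, 0 and 0 at days 1, 3, 4, 7 and 21, the lower ones 2, 1, 1 and 2 at days 3, 4, 7 and 21, and 0 fell from day 3 to 4 or from day 4 to 7. miR-214 turned at days 3, 4 and 21 (-0.75, -0.45 and -0.80, adjusted p = 0.00519, 0.0840 and 0.00392 in limma), miR-199a-3p at days 4, 7 and 21 (-1.21, -0.61 and -0.63) and miR-21 at day 21 (-0.10). Relative to snoRNA202 miR-199a-3p was at 0.25 at day 3, and 1 was higher from day 3 to 4, 2 from day 4 to 7, with 0 lower. Relative to U87 1 was higher at day 21, and 0 were lower from day 3 to 4 or from day 4 to 7.

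Relative to Y1 3 were higher and 0 lower at day 1, where miR-199a-3p (1.66), miR-199a-5p (0.97) and miR-214 (2.10) turned, as did miR-199a-3p at day 3 (1.27) and miR-199a-5p at day 21 (0.85). From day 1 to 3, 1 was higher, with miR-199a-3p at -0.38 and miR-21 at -0.015; from day 3 to 4, 2 were lower, with miR-199a-3p, miR-199a-5p and miR-214 at -0.66, -0.99 and -0.97; from day 4 to 7, 2 were higher and 0 lower, with miR-21 at 0.23. Relative to the median Ct 1 was higher at day 21, miR-214 was at -0.065 there, and miR-199a-5p and miR-214 were at -0.24 and -0.22 from day 3 to 4. In raw Ct 1 was lower at day 1, miR-199a-3p was at 0.66 at day 3, and 1 was higher and 0 lower in both steps between days 3, 4 and 7. With a mean shift per group, 0 were lower from day 4 to 7. Fits of 2 groups gave 4 differing pairs at day 7 and 0 at day 21, against 2 and 1, with fewer values behind each spread. Ct limits of 32 and 38, no limit, values at 40 kept and limma-trend moved no count by over 1.5 times and turned no sign.

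Leaving out 1 value at a time, or value 2 of every group (added after seeing the data), turned the sign of the following changes in 1 or more runs. miR-199a-5p ranged from -0.99 to 0.63 at day 21, from -0.0438 to 0.113 between days 3 and 4, and from -0.0763 to 0.38 between days 4 and 7. miR-199a-3p ranged from -0.163 to 0.0392 at day 3 and from -0.188 to 0.0878 between days 7 and 21. Ratios ranged from -0.10 to 0.76 for miR-21 over miR-199a-5p at day 4, from -0.29 to 1.27 and from -0.0658 to 1.52 for miR-199a-3p over miR-199a-5p at days 1 and 21, and from -1.25 to 0.15 for miR-199a-5p over miR-214 at day 21. Relative to U6, miR-21 ranged from -0.47 to 0.14 between days 3 and 4 and from -0.21 to 0.30 between days 4 and 7, miR-214 from -0.356 to 0.00417 at day 3 and from -0.0025 to 0.348 at day 21, miR-199a-3p from -0.42 to 0.21 between days 7 and 21, and miR-199a-5p from -0.95 to 0.38 at day 21. The count lower from day 4 to 7 ranged from 0 to 1, that higher from day 3 to 4 from 0 to 1, and the pairs that differed at day 21 from 0 to 2. No analysis pairing the values of different groups was possible because the columns carry no mouse or replicate number.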
